A study of Mus musculus with 4 samples.

Results

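The MCM helicase and nucleotide synthesis genes are 10 genes that DNA replication depends on: Mcm2, Mcm3, Mcm4, Mcm5, Mcm6 and Mcm7, the clamp gene Pcna, the ribonucleotide reductase genes Rrm1 and Rrm2, and the thymidylate synthase gene Tyms. They were chosen by function, by their Ensembl gene IDs, and all 10 were found among the 53465 gene IDs of the count table. All 10 also passed the filter on low counts, which kept 7719 IDs. The study measured ribosome footprints, the stretches of mRNA that ribosomes shield from nuclease, in MLE-12 cells, mouse lung epithelial cells that SV40 large T antigen made immortal and that serve as a stand-in for alveolar type 2 cells. One group was given 5 µM 1-nitropyrene, a nitrated polycyclic compound found in diesel exhaust, for 12 h (replicates 2 and 3), and the other was control, cultured without it (replicates 1 and 2). The labels say nothing of whether the 2 samples of a group are separate cultures, so p-values measure spread that may be technical.

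The MCM proteins encoded by Mcm2 to Mcm7 form a ring, with each subunit a different gene product, that is loaded onto DNA before S phase and then unwinds it as the core of the replicative helicase. PCNA is the sliding clamp that holds DNA polymerases on their template. Ribonucleotide reductase, made of the large subunit RRM1 and the small subunit RRM2, turns ribonucleotides into the building blocks of DNA, and thymidylate synthase (TYMS) makes the thymine nucleotide. Transcription of these genes is known to rise toward S phase through E2F factors, which the retinoblastoma proteins restrain. The SV40 large T antigen binds the retinoblastoma proteins, so both groups of this line carry that change. A footprint count reflects the amount of an mRNA together with how densely ribosomes occupy it, and with no RNA libraries analysed here the shares of these in a difference cannot be told apart. A change in how many cells are in a given state and a change in footprints per cell cannot be told apart in such bulk samples either.

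Libraries held 1243186 and 1357034 counts in 1-nitropyrene cells and 1261372 and 1136145 in control cells. The 10 genes together took 3319 and 3680 counts, or 0.267% and 0.271% of the library, in 1-nitropyrene cells, against 3063 and 2776 counts, or 0.243% and 0.244%, in control cells. Levels below are CPM, counts scaled by TMM to a library of 1e+06, in which 1 count was worth 0.861 and 0.792 CPM in the 1-nitropyrene libraries and 0.761 and 0.844 CPM in the control libraries. A gene was called changed where edgeR's quasi-likelihood test gave an adjusted p (Benjamini-Hochberg, over all 7719 IDs) under 0.05. The spread behind each p and standard error was that of the trend over all genes, not that of the gene's own libraries. With 2 libraries in each group an exact permutation test of any single value cannot give a two-sided p below 0.333.

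Footprints on 4 of the 10 genes rose with 1-nitropyrene. These were Mcm3, Mcm7, Pcna and Rrm1, with increases of 1.34- to 1.50-fold. Of all genes tested, 17.3% were called, 9.68% higher and 7.58% lower in 1-nitropyrene cells. None of the 10 was called lower, and the other 6 had estimates of 1.04- to 1.22-fold that did not pass the test. With TMM scaling, both 1-nitropyrene libraries lay above both control libraries in 9 of the 10 genes, and in Rrm2 the groups overlapped. Among these 9, the estimates of Mcm5 and Mcm6 fell below 0 with total counts as the scale. How many of the others stay apart on that scale was not counted, so the 9 of 10 holds for TMM only. Over all genes tested, 28.6% had both 1-nitropyrene libraries above both controls. Of the 4 calls, those of Mcm7 and Pcna did not hold in every fit that left 1 library out, as given with each gene below. In those fits the log2 fold change was 0.46 to 0.48 for Mcm7 and 0.46 to 0.53 for Pcna.

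**Figure D1:**
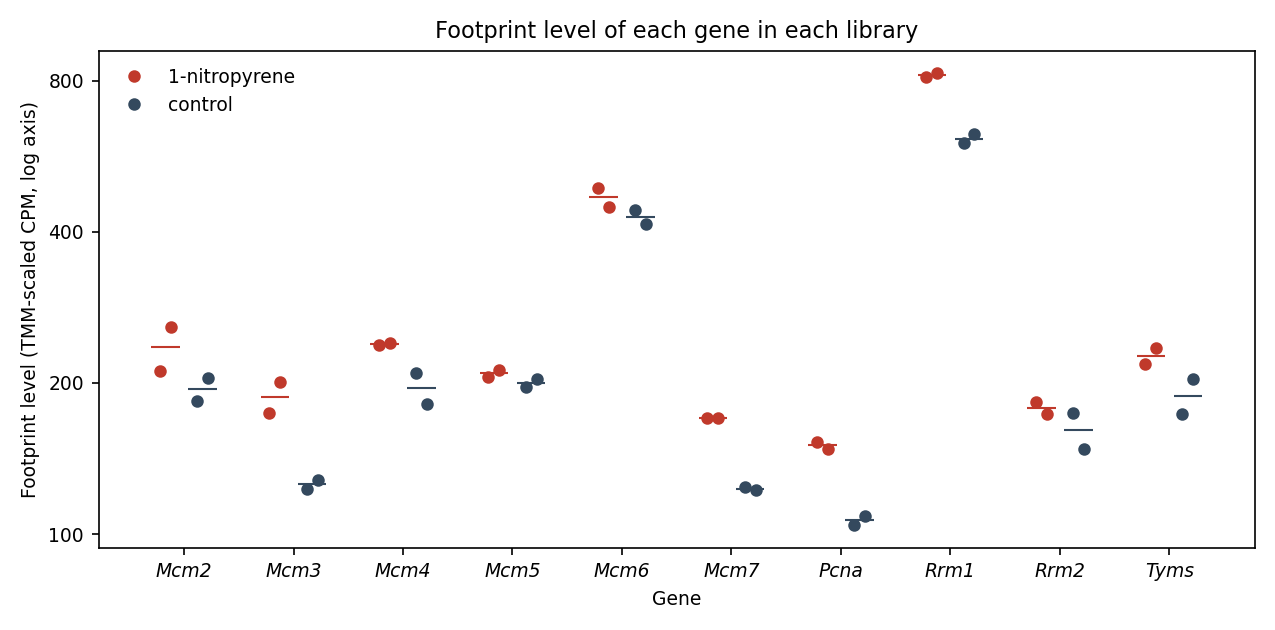
Footprint level in TMM-scaled CPM (log axis) of the 10 genes; each point is 1 library, short lines are the means of 2 libraries, and 1-nitropyrene stands left of control. Mcm3, Mcm7, Pcna and Rrm1 have clear gaps between the groups. In Rrm2 the points of the groups overlap, and in Mcm2, Mcm5 and Mcm6 the nearest points are close.

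Promoter stretches of 3 genes that rose (Mcm3, Pcna and Rrm1) and of Mcm6, which did not pass the test, are shown because E2F factors and the CCAAT-binding factor NF-Y are known regulators of replication genes. Each is the 150 bases before the RefSeq transcription start (GRCm38.p6), written 5′ to 3′ on the gene's strand. Capitals mark matches to the E2F letters (TTTNNCG with C or G at each N) or to CCAAT, on either strand. The positions are chr1:20820313-20820462 (minus strand) for Mcm3, chr1:128359706-128359855 (minus strand) for Mcm6, chr2:132253181-132253330 (minus strand) for Pcna and chr7:102441545-102441694 (plus strand) for Rrm1.
Mcm3: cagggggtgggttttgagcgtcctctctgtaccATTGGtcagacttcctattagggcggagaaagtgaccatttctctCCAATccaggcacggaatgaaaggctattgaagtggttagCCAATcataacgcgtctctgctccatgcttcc
Mcm6: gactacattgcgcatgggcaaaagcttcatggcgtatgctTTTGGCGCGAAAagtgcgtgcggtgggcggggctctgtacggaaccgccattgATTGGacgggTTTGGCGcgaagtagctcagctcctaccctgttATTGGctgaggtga
Pcna: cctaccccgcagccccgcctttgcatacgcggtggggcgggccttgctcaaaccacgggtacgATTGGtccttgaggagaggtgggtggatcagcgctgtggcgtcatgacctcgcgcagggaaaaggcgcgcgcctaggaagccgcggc
Rrm1: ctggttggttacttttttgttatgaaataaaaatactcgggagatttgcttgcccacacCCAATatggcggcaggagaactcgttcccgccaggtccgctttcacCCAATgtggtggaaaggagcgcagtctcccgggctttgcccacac

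In the Mcm6 stretch, 2 E2F matches on opposite strands share bases in the run of capitals farthest from the start, and another lies 47 bases before the start. Over windows from 250 bases before to 50 after a start, 4 of the 9 genes with a promoter in the RefSeq table held an E2F match at a listed start (Mcm3, Mcm5, Mcm6 and Mcm7), against 6.7% of all 32851 promoters. Both E2F matches of Mcm3 lay after the start, at 21 and 39 bases, and so fall outside the stretch shown. A CCAAT match was found in 8 of the 9 genes, all but Tyms, against 37.4% of all promoters, and no CCAAT match shared a base with an E2F match. Of the genes that rose, Mcm3 and Mcm7 held matches to these E2F letters, Mcm7 at 1 listed start and not at the other. Pcna and Rrm1 held none, though the Rrm1 stretch has gttcccg, which differs from the letters only at its first base. Mcm5 and Mcm6 held matches and did not pass the test. These matches describe the letters of the windows and say nothing of binding in these cells.

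Among the helicase genes, Mcm3 (ENSMUSG00000041859, chromosome 1, 20802966 to 20820312 in GRCm38.p6) had the largest estimate. Its product sits in the ring between MCM5 and MCM7. Mcm3 had 175 and 201 CPM (203 and 254 counts) in 1-nitropyrene cells, against 123 and 128 CPM (162 and 152 counts) in control cells. Both 1-nitropyrene libraries were well above both controls, and replicate 3 was the higher of them. The means were 188 ± 18.7 and 126 ± 3.55 CPM (SD, n = 2 each), a 1.50-fold increase (log2 fold change 0.58 ± 0.13 SE, edgeR adjusted p = 2.54e-04). The log2 difference between the groups of 0.58 compares with 0.20 between the 1-nitropyrene libraries and 0.057 between the controls.

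Mcm7 (ENSMUSG00000029730), which encodes a subunit of the helicase's catalytic core, had 170.4 and 170.3 CPM in 1-nitropyrene cells, against 124 and 122 CPM in control cells. The libraries within a group were almost level, and the groups stood apart. The increase was 1.38-fold (log2 fold change 0.47 ± 0.14 SE, edgeR adjusted p = 0.0073). The call was lost when any 1 of the 4 libraries was left out, at adjusted p of 0.0574 to 0.0780 with a log2 fold change of 0.46 to 0.48. The Mcm7 gene (chromosome 5, 138164583 to 138172111, GRCm38.p6) spans 3 microRNA genes, Mir25, Mir93 and Mir106b, and shares 91 bases at its 5′ side with Ap4m1. How reads in such shared stretches were counted is not given in the sources used here, so their part in the Mcm7 counts was not tested. The other 9 genes overlap no other gene of the RefSeq table.

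With TMM, Mcm2 and Mcm4 leaned the same way without passing the test, and less so with total counts as the scale. Mcm4 (ENSMUSG00000022673, chromosome 16, 15623897 to 15637400), another catalytic core subunit, had 238 and 240.0 CPM in 1-nitropyrene cells, against 209 and 181 CPM in control cells. The 1-nitropyrene libraries were level with each other and the controls were apart by 0.21 on the log2 scale, against 0.29 between the groups (1.22-fold, 95% interval 1.05 to 1.42, edgeR adjusted p = 0.0527). Mcm2 (ENSMUSG00000002870, chromosome 6, 88883474 to 88898780), a subunit that also binds histones, had 212 and 259 CPM in 1-nitropyrene cells, against 184 and 205 CPM in control cells. Here the gap between the 1-nitropyrene libraries, 0.29 on the log2 scale, was as large as the difference between the groups, 0.28 (1.21-fold, 95% interval 1.04 to 1.41, edgeR adjusted p = 0.0639).

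Mcm5 and Mcm6 showed the smallest differences of the helicase genes. Mcm5 (ENSMUSG00000005410, chromosome 8, 75109468 to 75128439), whose product forms with MCM2 the gate through which DNA enters the ring, had 206 and 212 CPM in 1-nitropyrene cells, against 196 and 204 CPM in control cells. The nearest libraries of the groups were almost level. The estimate was 1.04-fold with a 95% interval of 0.894 to 1.22 (edgeR adjusted p = 0.768), so a rise of the size seen in Mcm3 lay outside the interval. Mcm6 (ENSMUSG00000026355, chromosome 1, 128331575 to 128359705), a subunit to which the loading factor CDT1 is known to bind, had 488 and 449 CPM in 1-nitropyrene cells, against 441 and 415 CPM in control cells. Its estimate was 1.09-fold with an interval of 0.984 to 1.21 (edgeR adjusted p = 0.257). Levels were not compared between genes, since coding lengths were not used here.

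As the ring takes up its subunits in equal numbers, the share of each gene in the summed Mcm2 to Mcm7 counts of a library was examined as a measure that no scaling enters. The sum was 1730 and 1934 counts in 1-nitropyrene cells and 1680 and 1489 in control cells. Mcm3 took 11.7% and 13.1% in 1-nitropyrene cells, against 9.64% and 10.2% in control cells. Mcm7 took 11.4% and 11.1% in 1-nitropyrene cells, against 9.70% and 9.74% in control cells. Both shares were higher in each 1-nitropyrene library than in either control.

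Mcm5 had a lower share in both 1-nitropyrene libraries, with 13.8% and 13.9% in 1-nitropyrene cells, against 15.4% and 16.3% in control cells. The shares of a library add up to the whole, so higher shares of some genes mean lower shares of others. The level of Mcm5 itself was estimated at 1.04-fold with TMM. Mcm6 took 32.8% and 29.3% in 1-nitropyrene cells and 34.5% and 33.0% in control cells, where the nearest libraries were almost level. The groups overlapped for Mcm2, at 14.2% and 16.9% in 1-nitropyrene cells and 14.4% and 16.3% in control cells, and for Mcm4, at 16.0% and 15.7% in 1-nitropyrene cells and 16.4% and 14.4% in control cells. The exact 95% binomial intervals of single libraries, which cover counting error only, overlapped between groups in all but 2 of 24 pairs of a 1-nitropyrene with a control library. For Mcm3 the interval was 11.7 to 14.7% in 1-nitropyrene replicate 3 and 8.27 to 11.2% in control replicate 1. For Mcm6 it was 27.3 to 31.4% in 1-nitropyrene replicate 3 and 32.2 to 36.9% in control replicate 1.

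**Figure D2:**
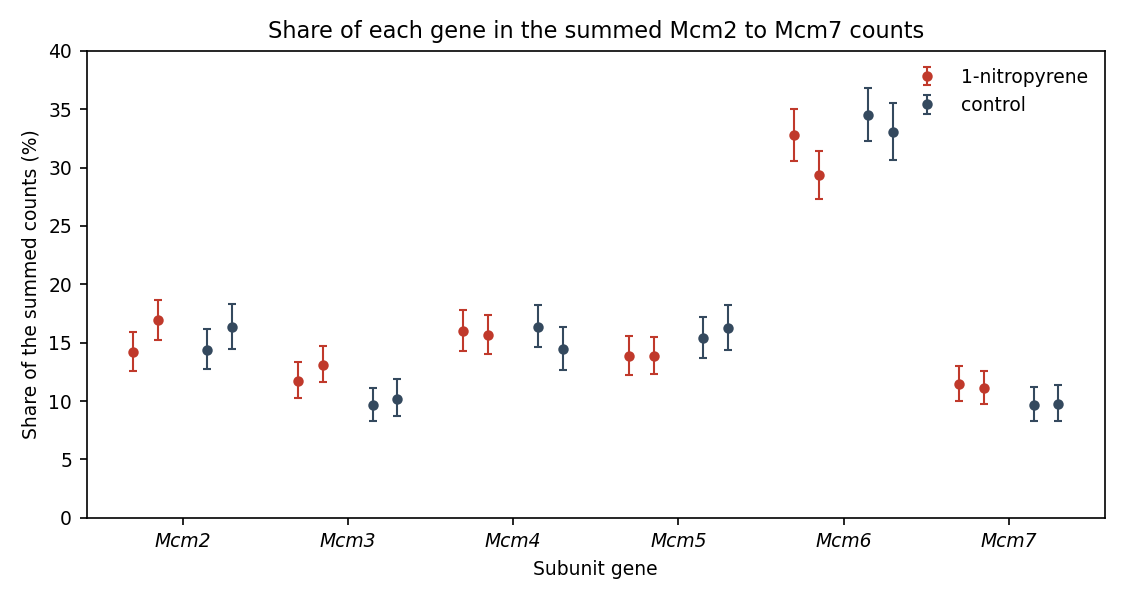
Share of each gene in the summed Mcm2 to Mcm7 counts (percent), with exact 95% binomial intervals; each point is 1 library, and the 1-nitropyrene libraries (replicates 2 and 3) stand left of the controls (replicates 1 and 2). Mcm3 and Mcm7 take more of the sum in both 1-nitropyrene libraries, Mcm5 takes less, and Mcm2 and Mcm4 overlap.

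Set against Mcm5 within each library, Mcm3 had 0.849 and 0.948 counts per Mcm5 count in 1-nitropyrene cells, and 0.628 in each control library. Mcm7 had 0.828 and 0.802 counts per Mcm5 count in 1-nitropyrene cells, against 0.632 and 0.599 in control cells. These pairs were picked after the values were seen and are a description. Summed over the 6 helicase genes, the level was 1489 and 1532 CPM in 1-nitropyrene cells and 1278 and 1256 CPM in control cells, a ratio of means of 1.19.

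Pcna (ENSMUSG00000027342, chromosome 2, 132249286 to 132253180) rose 1.41-fold. It had 152 and 148 CPM (177 and 187 counts) in 1-nitropyrene cells, against 104 and 109 CPM (137 and 129 counts) in control cells. The libraries within a group were close, and the groups did not overlap. The means were 150.2 ± 2.96 and 107 ± 3.27 CPM (SD, n = 2 each; log2 fold change 0.50 ± 0.15 SE, edgeR adjusted p = 0.0081). Pcna had the fewest counts of the 10 genes, and its call was lost without 1-nitropyrene replicate 2 (adjusted p = 0.0943) and without control replicate 1 (adjusted p = 0.105). The RefSeq table lists the pseudogenes Pcna-ps1 and Pcna-ps2, and reads that match such copies as well may have been split or dropped in the counting, so the level of Pcna is uncertain to that degree.

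Rrm1 (ENSMUSG00000030978, chromosome 7, 102441695 to 102469771) was the most firmly measured of the 10, with the most counts. It had 814 and 827 CPM (946 and 1044 counts) in 1-nitropyrene cells, against 600.1 and 626 CPM (789 and 742 counts) in control cells. Both 1-nitropyrene libraries were far above both controls compared with the gaps within groups. The means were 820.5 ± 9.12 and 613 ± 18.3 CPM (SD, n = 2 each), a 1.34-fold increase (log2 fold change 0.42 ± 0.061 SE, edgeR adjusted p = 4.70e-10).

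The small subunit gene Rrm2 (ENSMUSG00000020649, chromosome 12, 24708254 to 24714146) did not pass the test. It had 183 and 173 CPM in 1-nitropyrene cells, against 174 and 148 CPM in control cells, so that the lower 1-nitropyrene library lay just under the higher control. Its estimate was 1.10-fold with a 95% interval of 0.930 to 1.31 (edgeR adjusted p = 0.473), which takes in no change and reaches close to the estimate for Rrm1. Within libraries, Rrm1 had 4.44 and 4.77 counts per Rrm2 count in 1-nitropyrene cells, against 3.45 and 4.24 in control cells. That ratio was higher in both 1-nitropyrene libraries, but the controls differed from each other by more than the nearest libraries of the groups did. A difference in response between Rrm1 and Rrm2 was thus not shown.

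Tyms (ENSMUSG00000025747, chromosome 5, 30038546 to 30073645) had 218 and 234 CPM in 1-nitropyrene cells, against 173 and 203 CPM in control cells. The groups did not overlap, but the controls were 0.23 apart on the log2 scale, against 0.27 between the groups (1.20-fold, 95% interval 1.03 to 1.41, edgeR adjusted p = 0.0875). The RefSeq table lists a transcribed pseudogene, Tyms-ps, so that the level of Tyms carries the same uncertainty as that of Pcna. Summed over Rrm1, Rrm2 and Tyms, the level was 1215 and 1235 CPM in 1-nitropyrene cells and 948 and 977 CPM in control cells, a ratio of means of 1.27, in which Rrm1 holds most of the counts.

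The choice of scaling bears on every level and fold above, and on whether the libraries of the groups overlap. With total counts as the scale, the median log2 fold change over tested genes was -0.17, against -0.0076 with TMM. With total counts, 26.8% of all calls were higher in 1-nitropyrene cells, against 56.1% with TMM. Under it Mcm3 (log2 fold change 0.42, adjusted p = 0.0143) and Rrm1 (0.26, adjusted p = 4.22e-04) still rose, whereas Mcm7 (0.30, adjusted p = 0.106) and Pcna (0.33, adjusted p = 0.0990) did not pass. The estimates of Mcm5, Mcm6 and Rrm2 turned slightly below 0, at -0.10, -0.037 and -0.021, and stayed short of the threshold.

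**Figure D3:**
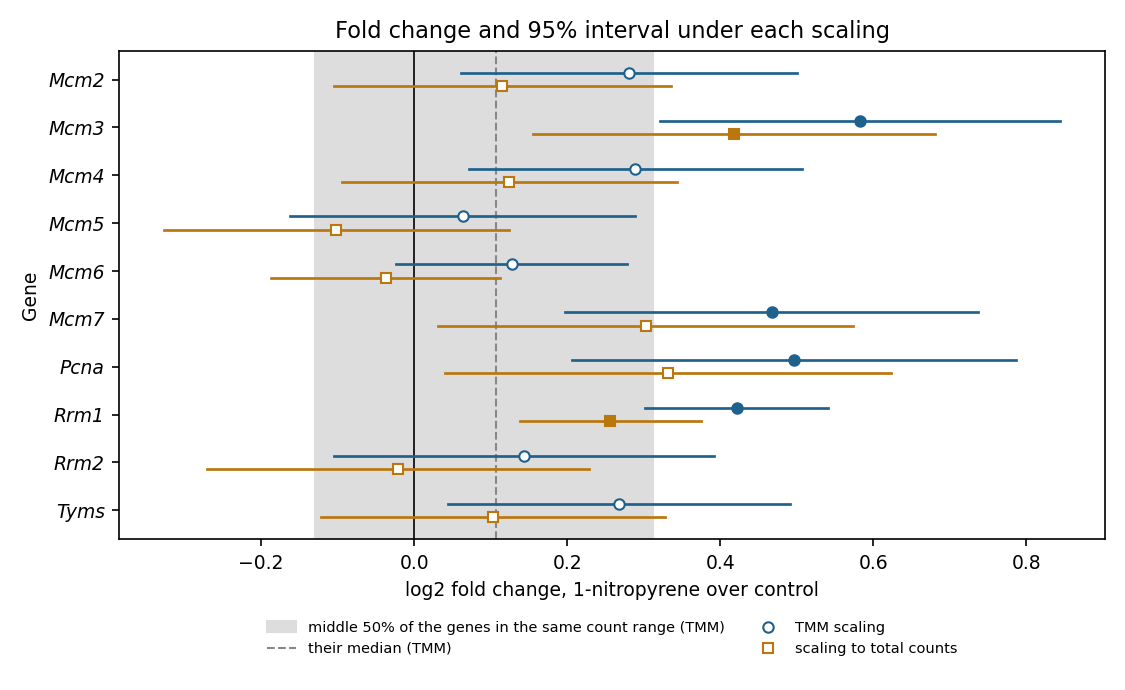
log2 fold change of 1-nitropyrene over control with its 95% interval for each gene, with TMM scaling (circles) and with total counts (squares); filled symbols have an adjusted p under 0.05 in edgeR, and the band and dashed line give the middle 50% and the median of the genes in the same range of mean counts with TMM. Mcm3 and Rrm1 are filled under both scalings and Mcm7 and Pcna under TMM alone, and Mcm5, Mcm6 and Rrm2 fall on either side of 0.

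The 4 rises were read against genes counted as deeply, because calls were more frequent there. Between the lowest and highest mean counts of the 10 genes, 157.5 and 880.25, lay 1058 tested genes, themselves included. Of these, 28.4% were called higher and 13% lower, and 48% had both 1-nitropyrene libraries above both controls. A share of 4 in 10 called higher is thus close to that of genes counted as deeply, and is not taken as particular to replication genes.

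The median log2 fold change was 0.29 over the 10 genes and 0.11 over the 1058, of which the middle 50% lay between -0.13 and 0.31. Mcm3 was above 92.8% of the 1058 genes, Pcna above 89.2%, Mcm7 above 87.1% and Rrm1 above 85.1%. At the other end, Mcm5 was above 45.4% and Mcm6 above 52.6%, near the middle of such genes. Between these lay Mcm4, above 72.3%, Mcm2, above 71.1%, Tyms, above 69.8%, and Rrm2, above 54.8%, all within the middle 50%.

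**Figure D4:**
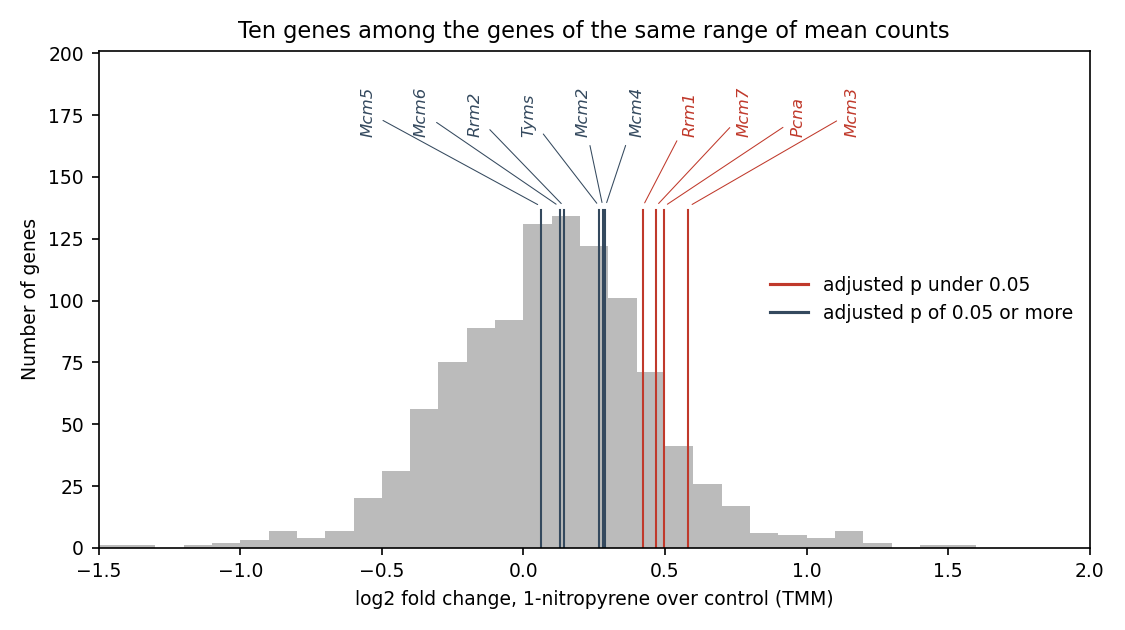
Number of genes by log2 fold change (TMM) among the 1058 tested genes in the same range of mean counts, with the 10 genes as vertical lines, red where the adjusted p is under 0.05. The 10 lines run from 0.063 (Mcm5) to 0.58 (Mcm3), within the spread of the histogram, with Mcm5 and Mcm6 near its middle and the 4 red lines to the right of it.

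Other genes of replication could not be described by name. Lists of origin licensing, polymerase, clamp loading, fork, nucleotide synthesis and E2F genes had been drawn up by symbol, but the RefSeq table gives an Ensembl ID for 0 of its 49997 genes, so that these lists, and the markers of alveolar type 2 and other lung cell types, were not analysed here. A set of unnamed S phase IDs from the mouse marker pairs of scran was used in their place. Of its 97 tested IDs, 4 rose and 7 fell, while 86 stayed short of the threshold. The share called was 11.3%, against 17.3% of all genes tested. The set was not matched to other genes by count depth, with which the share called varies, so no weaker response is read from this. The median log2 fold change of the set was -0.054, against -0.0076 for all genes. None of the 10 genes is in that set (Mcm5 falls to G2M and Pcna to G1 by the same pairs, and the other 8 to no phase), so it does not stand for them.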

How the data were processed

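Ribosome footprint libraries of MLE-12 cells were compared, 2 of 1-nitropyrene and 2 of control. Per the labels' protocols, cells were washed with cycloheximide, footprints were purified, rRNA was removed and a microRNA kit was used for the libraries. The authors deposited whole-number counts per Ensembl gene ID with no normalization, in a table with 0 other sample columns. Per the submitters' processing notes, cutadapt, Bowtie, HISAT2, featureCounts and DESeq2 were used with mm10; the sources used here do not give their settings, the annotation or the strand setting. The count table has no symbols: the 10 IDs and names come from the definition of the gene group, and positions and sequences from RefSeq (GRCm38.p6), matched by symbol.

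Genes were filtered with filterByExpr (minimum count 10, minimum total 15), scaled with TMM and tested with edgeR 4.0.16 (R 4.3.3; glmQLFit and glmQLFTest, no covariates, all 4 libraries), with Benjamini-Hochberg adjustment over 7719 genes. With infinite prior degrees of freedom, the spread of each gene is that of the trend. Standard errors and 95% intervals come from the fold change and F. The test scripts were tested on simulated data. Over genes with 20 counts or more in a pair, libraries of 1 group differed beyond counting noise (chi-square per degree of freedom 1.61 and 1.55), so none was taken as a copy of another; this does not show separate cultures. S phase IDs were taken from scran 1.30.0 at a difference of at least 10 pairs. Alternatives were other scalings, filters, DESeq2 1.42.0, limma-voom (limma 3.58.1), a robust fit and leaving out each library. The rule for naming was to name all 10 genes. The members and lists were chosen with earlier results of these data known. Levels per coding length were not computed, as coding lengths were not used here.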

Additional observations from a re-analysis of the deposited data

How the results depend on the processing

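Mcm3 and Rrm1 kept direction and call in all 12 alternatives each, with log2 fold changes of 0.42 to 0.69 and 0.26 to 0.46. The call of Mcm3 was the less firm of these, as it only just passed in the DESeq2 Wald test (adjusted p = 0.049). Rrm1 had an adjusted p of 3.09e-04 in that test. Mcm2, Mcm4 and Tyms kept their direction and passed in none of their 12, and neither did Mcm5, Mcm6 and Rrm2. The 4 genes called were 2 with total counts and 2 with the DESeq2 Wald test, Mcm3 and Rrm1 in both cases; Mcm7 and Pcna had adjusted p of 0.148 and 0.153 in the DESeq2 test. They were 2 to 3 when 1 library was left out (2 without control replicate 1 or 1-nitropyrene replicate 2), the lone library being assumed to vary like the other group. The other scalings and filters, limma-voom and the robust fit called the same 4 genes. With total counts the estimates of Mcm5, Mcm6 and Rrm2 reversed, to -0.10, -0.037 and -0.021. Over all genes, 1332 of 7719 were called, 747 higher and 585 lower. The DESeq2 Wald test gave an adjusted p for 2818 genes, so its counts of calls are not over the same genes as those of edgeR. Total counts gave 406 higher and 1110 lower, the DESeq2 Wald test 315 (238 higher and 77 lower), and leaving out 1 library 572 to 834 (382 to 480 higher and 190 to 354 lower). Of the S phase IDs 11 were called, 1 with the DESeq2 Wald test and 2 to 8 without 1 library. No paired analysis was possible because only replicate number 2 occurs in both groups. The planned levels per coding length and symbol lists were not run. Pcna, with the fewest counts of the 10 genes (129 to 187 in a library), had a 95% interval of 1.15- to 1.72-fold, against 1.23- to 1.46-fold for Rrm1, with the most.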
